A study of Mus musculus with 39 samples.

Results

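Cadherins and protocadherins are cell-surface proteins whose genes carry the symbols Cdh and Pcdh, and their positions in the nucleosome wrapping domains and replication timing domains of mouse ES cells are described here. The members were all protein-coding genes on chromosomes 1 to 19 of the mm10 annotation with a symbol of Cdh followed by digits or a symbol that starts with Pcdh. There were 90 such genes of 20807. Of these, 57 belonged to the Pcdha, Pcdhb and Pcdhg clusters that lie side by side in 1 locus, and the other 33 (23 Cdh and 10 Pcdh genes) were dispersed over 10 chromosomes. The 57 clustered entries carried 56 symbols, because 2 gene identifiers shared the symbol Pcdha11.

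The cells were wild-type R1 cells, an ES cell line from the inner cell mass, grown with serum and leukemia inhibitory factor, and the H3 and RT libraries came from this 1 line without a mutant or drug-treated group. The first list held nucleosome wrapping domains (NRDs), called from 4 H3-wrapping-seq libraries of 2 experiments. In this assay crosslinked chromatin is digested with MNase, which trims DNA that a nucleosome does not protect, and DNA on histone H3 is sequenced from both ends. Each 100 kb bin is scored by its balance of fragments longer and shorter than 140 bp, and the z-score of this balance is the wrapping index (NRI), which has no unit. NRDs with a positive index are called tight (TiNRDs) and those with a negative index loose (LoNRDs). The second list held replication timing (RT) domains, for which the series has 8 libraries of BrdU-labelled DNA from 4 fractions of S phase, 2 per fraction, and it is not given in the sources used here whether both replicates entered the list. Its values are log2 ratios of DNA in the first 2 fractions to DNA in the last 2, above 0 where replication is early and below 0 where it is late. Each gene took the value of the domain that held its midpoint. The lists name no replicates and give no read numbers, and tracks of single replicates were not analysed here, so domain values are given without a depth and without a spread between replicates. Counts of members are therefore given beside the share of all protein-coding genes, without a test. Neither list holds expression values.

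Classical cadherins bind the same or a related cadherin on the neighbouring cell in the presence of calcium and are tied to actin through catenins. E-cadherin, the product of Cdh1, holds epithelial cells and ES cells together, while N-cadherin, the product of Cdh2, is typical of neural and mesenchymal cells. Most type II cadherins and protocadherins are best known from the nervous system, where clustered protocadherins are chosen in combinations that give single neurons a surface identity.

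The sequences before the starts of dispersed genes from both ends of the wrapping scale are given first, because their G/C content can be set beside that of the domains around them. The stretches below come from RefSeq entries on build GRCm38.p6, run 5′ to 3′ on the strand of the gene and are shown for the dispersed genes outside the chromosome of the clustered locus with the 2 highest and the 2 lowest NRD values among those with an entry (Pcdh20 and Pcdh9 share a value). CpG dinucleotides are in capitals. The stretch of Cdh26 lies at chr2:178430265-178430514 on the plus strand, and the others on the minus strand, that of Cdh22 at chr2:165234854-165234987, of Cdh8 at chr8:99416472-99416721, of Pcdh20 at chr14:88471397-88471646 and of Pcdh9 at chr14:93890680-93890929. For Cdh22 the 116 bases that lie inside the annotated gene were left out.
Cdh26: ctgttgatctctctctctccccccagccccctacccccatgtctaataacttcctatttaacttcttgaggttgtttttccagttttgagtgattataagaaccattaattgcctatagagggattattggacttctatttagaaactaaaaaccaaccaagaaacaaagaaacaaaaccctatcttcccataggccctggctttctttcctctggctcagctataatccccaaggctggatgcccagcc
Cdh22: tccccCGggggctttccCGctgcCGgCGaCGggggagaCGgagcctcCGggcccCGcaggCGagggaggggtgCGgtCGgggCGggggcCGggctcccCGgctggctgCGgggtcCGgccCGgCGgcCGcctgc
Cdh8: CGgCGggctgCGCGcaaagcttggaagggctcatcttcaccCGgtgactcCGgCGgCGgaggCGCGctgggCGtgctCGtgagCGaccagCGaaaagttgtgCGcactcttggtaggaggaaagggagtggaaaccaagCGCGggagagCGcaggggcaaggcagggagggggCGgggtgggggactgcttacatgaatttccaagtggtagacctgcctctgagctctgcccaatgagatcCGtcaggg
Pcdh20: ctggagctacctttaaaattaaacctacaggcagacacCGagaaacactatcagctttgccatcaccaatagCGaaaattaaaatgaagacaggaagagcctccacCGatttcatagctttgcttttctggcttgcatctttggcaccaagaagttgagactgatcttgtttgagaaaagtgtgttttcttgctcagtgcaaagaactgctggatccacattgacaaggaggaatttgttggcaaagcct
Pcdh9: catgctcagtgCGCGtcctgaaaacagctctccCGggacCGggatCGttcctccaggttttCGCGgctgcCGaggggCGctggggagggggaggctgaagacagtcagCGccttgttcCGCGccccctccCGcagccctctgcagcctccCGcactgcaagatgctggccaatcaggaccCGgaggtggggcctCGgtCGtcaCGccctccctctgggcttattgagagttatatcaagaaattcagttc

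Cdh26, in the NRD with the highest index of all those with members, had 0 CpGs in these 250 bases, whereas Cdh8, in the NRD with the lowest index, had 20. Cdh22 had 19 CpGs in the 134 bases shown, Pcdh9 had 18 and Pcdh20 had 3. Of the 33 dispersed genes, 21 had an entry, 15 of them in LoNRDs and 6 in TiNRDs. The median G/C content of the 250 bases before the start was 58.0% for the former and 58.2% for the latter. Over all genes with an entry the medians were 44.0% in LoNRDs (3158 genes) and 58.0% in TiNRDs (12358 genes). The median number of CpGs was 8 for both kinds of dispersed gene, beside 3 in LoNRDs and 13 in TiNRDs over all genes. The entries of Cdh12, Cdh18 and Pcdh15 lay 662, 487 and 723 kb from the start in the gene annotation, so for these long genes they describe another start than the first one annotated. The stretches of Cdh7, Cdh10 and Cdh15, whose entries lay 0.469, 1.38 and 0.408 kb from the annotated start, were also wholly inside the annotated gene. The E-box CAGGTG, the motif bound by the Snail and Zeb repressors of Cdh1, was found on either strand in 2 of the 21 stretches (9.52%), those of Cdh7 and Pcdh15, and in 16.8% of 15687 stretches of all genes. The letters TATAAA were found on either strand in 2 of 21, and in 11.97% of all genes. These are matches of letters in short windows, and Cdh1, Cdh2 and Cdh3 were not among the entries used.

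Over the 33 dispersed genes, 15 lay in TiNRDs and 18 in LoNRDs, where 79.5% of all protein-coding genes with a call lay in TiNRDs. For RT, 13 genes lay in early domains, 18 in late domains and 2 (Cdh13 and Cdh17) in gaps of the list, where 77.9% of all genes lay in early domains. Of the 31 genes with both calls, 12 were tight and early, a combination held by 72.5% of all genes. Another 17 were loose and late, a combination held by 14.1% of all genes. A single dispersed gene, Cdh26, was tight and late (7.82% of all genes), and a single one, Cdh6, was loose and early (5.56% of all genes). The median index of the dispersed genes was -0.83 and their median RT value -0.61 on the log2 scale, beside 0.76 and 0.98 over all genes. These medians describe no typical gene, since no index lay between -0.77 and 0.29, and without the members within 100 kb of a border the median index was -0.24 (24 genes, 12 of them tight).

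**Figure D1:**
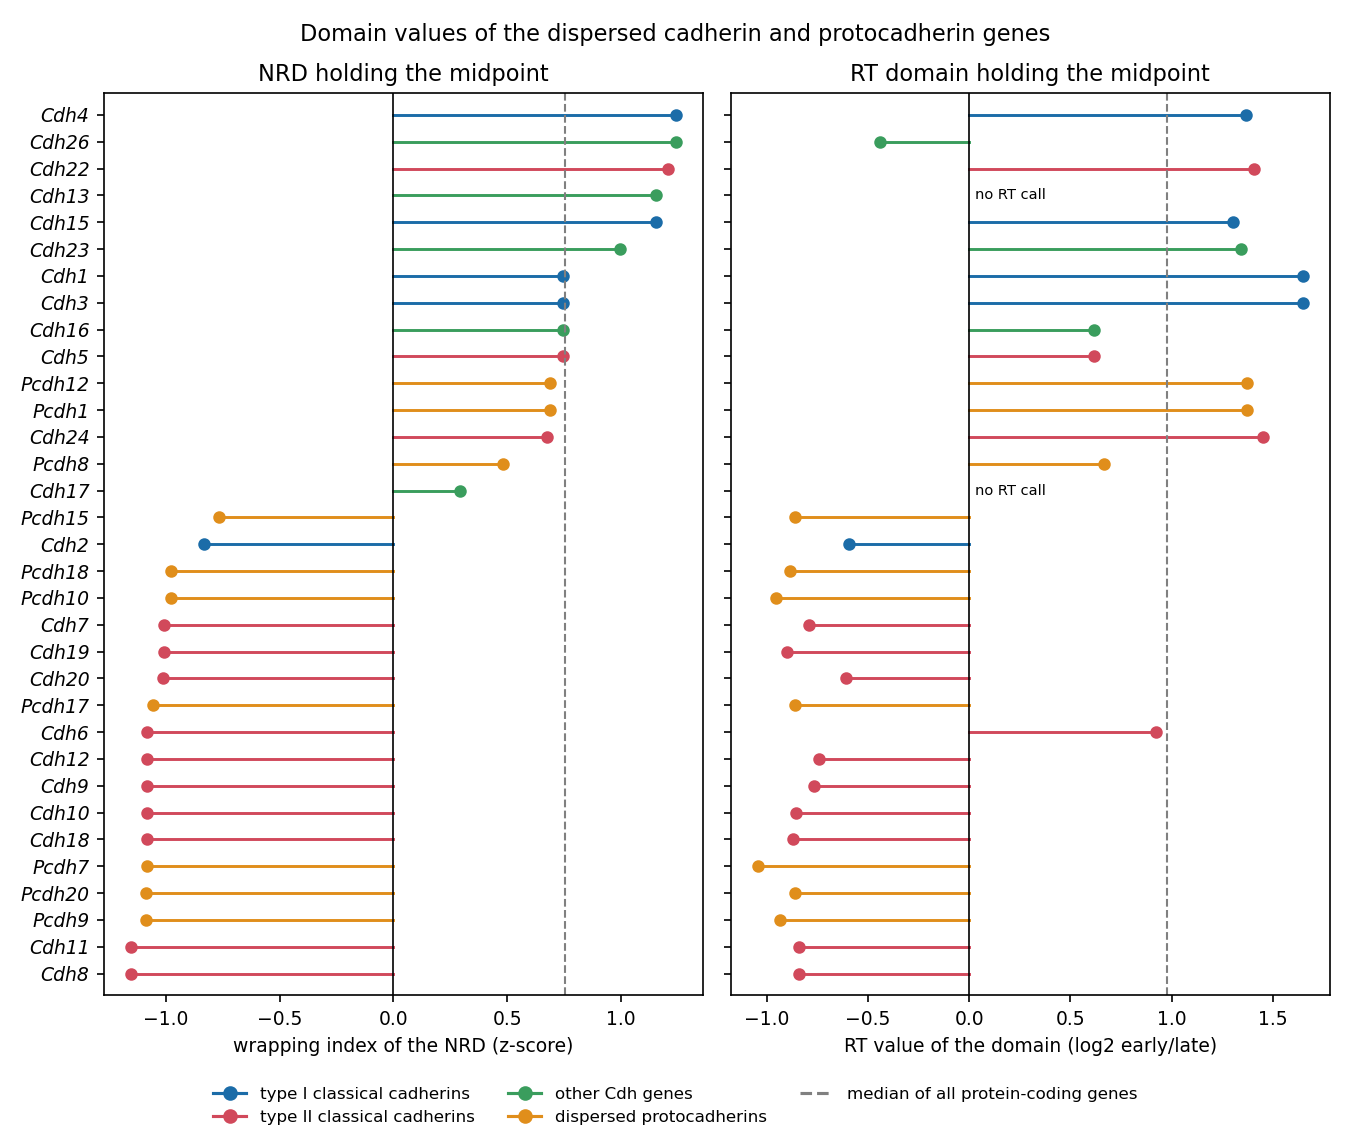
Wrapping index of the NRD (left, z-score) and RT value of the RT domain (right, log2 ratio of early to late fractions) at the midpoint of each of the 33 dispersed genes, ordered by index. Points are domain values coloured by group, dashed lines mark the medians of all protein-coding genes (0.76 and 0.98), and no dispersed gene had an index between -0.77 and 0.29.

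Type I classical cadherins form the adherens junctions of many tissues, and 4 of these 5 genes were tight and early, near the 72.5% of all genes. Cdh1 (E-cadherin) and Cdh3 (P-cadherin, found in placenta and basal epithelia) are separated by 46.1 kb and lay in the same NRD, with an index of 0.75, and in the same RT domain, with an RT value of 1.65. This RT value was the highest of all members and exceeded that of most genes (percentile 92.9). Cdh4, the R-cadherin of retina and brain, had an index of 1.24 and an RT value of 1.37. Cdh15, the M-cadherin of muscle, had an index of 1.15 and an RT value of 1.30. Cdh2 (N-cadherin) stood apart from the other four, with an index of -0.83 and an RT value of -0.59, and it was the type I gene in a loose and late region. The NRD of Cdh2 held 10 protein-coding genes in 5100 kb, while that of Cdh1 and Cdh3 held 109 in 5700 kb.

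Type II classical cadherins were mostly loose, since 10 of 13 genes lay in LoNRDs and 9 of 13 were loose and late. Over all genes, 14.1% were loose and late. Cdh8 and Cdh11, the latter the cadherin of osteoblasts and mesenchyme, shared the lowest index of all members, -1.15, and an RT value of -0.84. At chr8:96100001-103500000 (mm10) these 2 were the sole protein-coding genes of a LoNRD of 7400 kb. The TiNRD that followed without a gap, chr8:103500001-109200000, held Cdh5, Cdh16, Cdh3 and Cdh1. From Cdh11 to Cdh5, the VE-cadherin of endothelial junctions, the index rose from -1.15 to 0.75 across 1316 kb in which no other protein-coding gene was annotated. The RT border between both genes lay at the last base of the late domain, chr8:97300001-104100000, and Cdh5 started just inside the next domain with an RT value of 0.62.

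A second series of type II genes lay in the LoNRD chr15:13100001-25300000, which at 12200 kb was at rank 5 by length among 525 LoNRDs. It held 6 protein-coding genes by midpoint, and 5 of them were Cdh6, Cdh9, Cdh10, Cdh12 and Cdh18. All 5 had an index of -1.08. Their RT values were 0.92 for Cdh6, -0.76 for Cdh9, -0.86 for Cdh10, -0.74 for Cdh12 and -0.87 for Cdh18, so the first gene was early and the 4 genes farther inside were late. On chromosome 1, Cdh7 and Cdh19 shared a LoNRD with an index of -1.01, and Cdh20, 4987 kb before Cdh7, lay in another LoNRD with the same rounded index. The RT values of Cdh20, Cdh7 and Cdh19 were -0.61, -0.79 and -0.90. The 3 type II genes in TiNRDs were Cdh5, Cdh22 (index 1.21, RT value 1.41) and Cdh24 (index 0.67, RT value 1.45). Cdh24 and Cdh5, at 10.13 and 42.9 kb, were shorter than each of the 10 loose type II genes (89.3 to 1140 kb), and Cdh22, at 123 kb, was within their range.

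The other 5 Cdh genes encode cadherins outside both classical types, and all 5 lay in TiNRDs, near the 79.5% of all genes. Cdh16 is a cadherin of kidney tubules, and it shared the domains and values of Cdh5 (index 0.75, RT value 0.62). Cdh23, which forms the tip links of inner-ear hair cells together with Pcdh15, had an index of 1.00 and an RT value of 1.34. Its partner Pcdh15 lay in a LoNRD with an index of -0.77 and in a late domain with an RT value of -0.86, so the genes of these 2 proteins had opposite calls in both lists. Cdh26 had an index of 1.24, in the same NRD as Cdh4, but lay in a late domain of 1000 kb with 4 genes and an RT value of -0.44. Cdh13, the lipid-anchored T-cadherin, had an index of 1.15 and no RT call, since its midpoint fell in a gap of 100 kb between late domains of -0.49 and -0.38. Cdh17, an intestinal cadherin, had an index of 0.29, the smallest of the tight members. It lay wholly in an RT gap of 350 kb between an early domain of 1.31 and a late one of -0.65.

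Among the 10 dispersed protocadherins, 7 were loose and late and 3 were tight and early, beside 14.1% and 72.5% of all genes. The delta protocadherins, known from the brain, were on both sides, with Pcdh7, Pcdh9, Pcdh10, Pcdh17 and Pcdh18 loose and late and Pcdh1 and Pcdh8 tight and early. Pcdh7 had the lowest RT value of all members, -1.04 (percentile 0.666), with an index of -1.09. Pcdh9 and Pcdh20 shared an index of -1.09 and had RT values of -0.94 and -0.86. Pcdh17 had an index of -1.06 and shared its RT domain of 7000 kb with Pcdh20. Pcdh10 and Pcdh18 shared an index of -0.98 and had RT values of -0.95 and -0.88. The early ones were Pcdh8, which takes part in the remodelling of adhesion in embryo and synapse, with an index of 0.48 and an RT value of 0.67, and Pcdh1 and Pcdh12, both with an index of 0.69 and an RT value of 1.37. Pcdh8 lay 231 kb from the LoNRD that holds Pcdh17. Pcdh1 and Pcdh12 lie in the same NRD as the clustered locus, described further on.

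**Figure D2:**
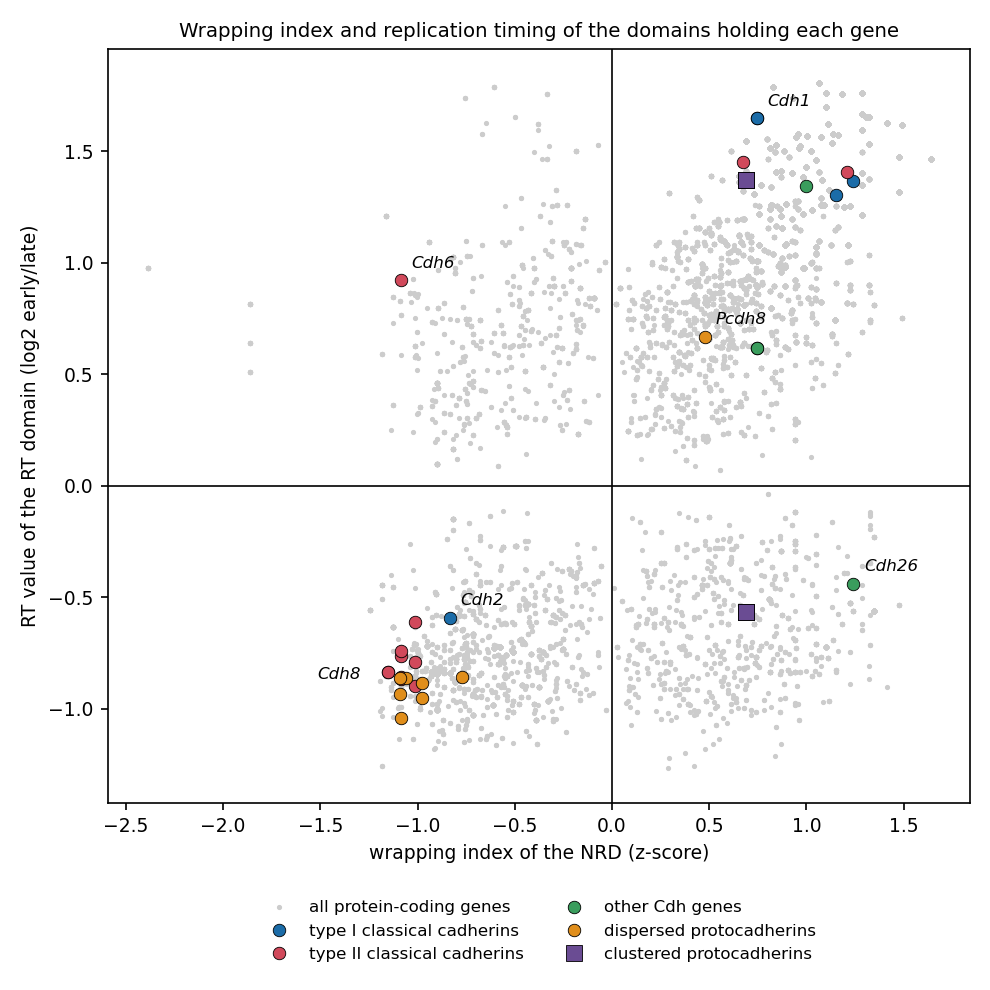
Wrapping index (x axis, z-score) against RT value (y axis, log2 early/late) of the domains that hold each protein-coding gene (grey) and each member with both calls (coloured by group). Genes of 1 domain share a point, so the 57 clustered genes appear as 2 squares at an index of 0.69, the upper of which covers Pcdh1 and Pcdh12, while 17 dispersed genes lie in the lower left and 12 in the upper right.

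The loose dispersed genes lay in long, gene-poor domains. Their midpoints were 1.19 kb (Cdh6) to 5817 kb (Cdh10) from the nearest TiNRD, with a median of 2915 kb, and those of Cdh11, Pcdh15, Cdh20 and Pcdh20 were 791 to 968 kb from it. The 18 genes were held by 10 LoNRDs of 3000 to 12200 kb with a median of 9300 kb, and all 10 were longer than the median LoNRD of chromosomes 1 to 19 (1100 kb). Weighted by gene, the median length was 11050 kb for the loose members and 2400 kb for all genes in LoNRDs. These 10 LoNRDs held 0.27 to 1.96 protein-coding genes per Mb, where the median of 525 LoNRDs was 2.75, and had an A/T content of 61.1 to 63.4%. Their indexes ran from -1.15 to -0.77, and the median over all 525 was -0.45. The 15 tight genes were held by 9 TiNRDs of 1600 to 14500 kb with 7.59 to 25.6 genes per Mb, where the median of 561 TiNRDs was 8.89. All 9 were likewise longer than the median TiNRD (1100 kb), with a median of 5500 kb. Weighted by gene, however, the median length was 5700 kb for the tight members and 5000 kb for all genes in TiNRDs. The gene-weighted median densities were 16.5 and 16.4 genes per Mb, so the tight members lay in domains much like those of other tight genes. Of all genes in LoNRDs 71.8% were late, and of the 18 loose members 17 were.

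**Figure D3:**
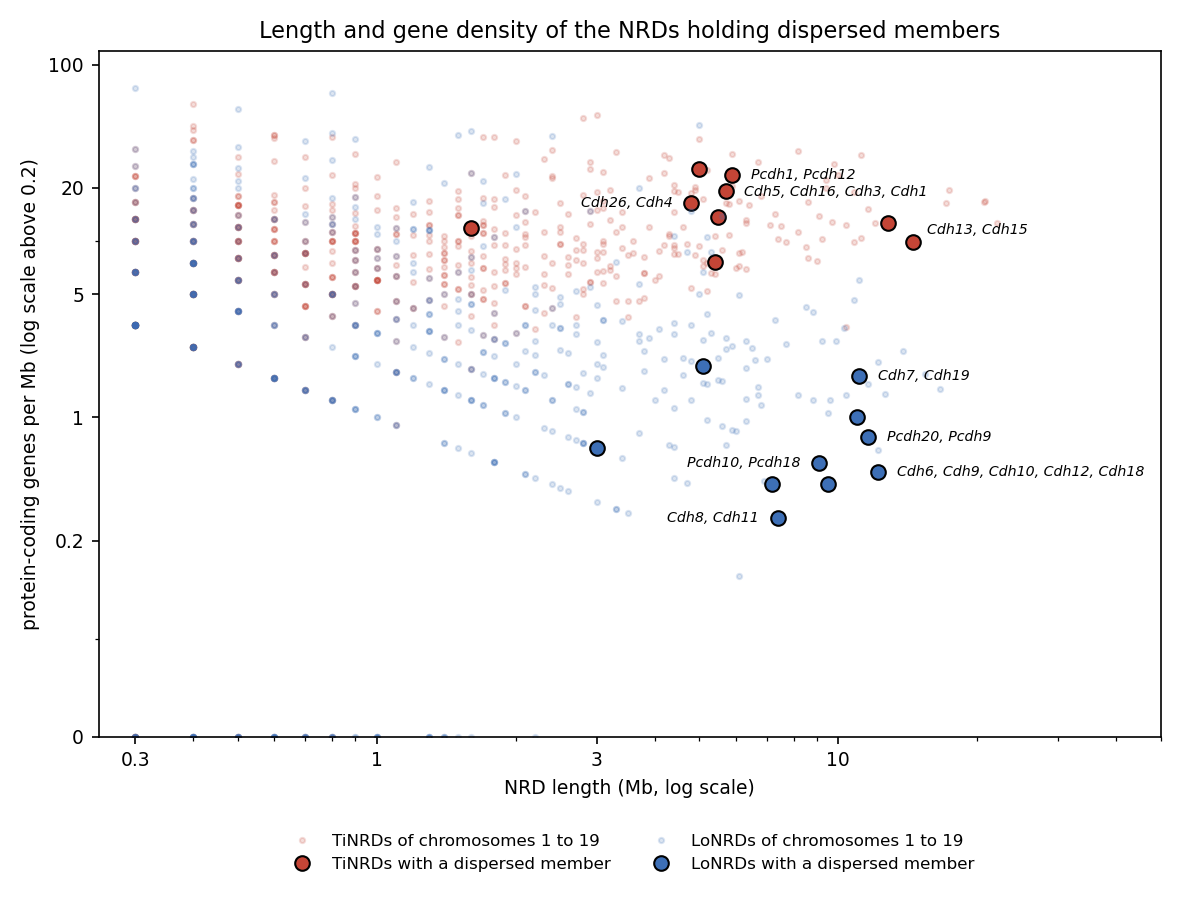
Length (x axis, Mb, log scale) and density of protein-coding genes (y axis, genes per Mb, log scale above 0.2) of each NRD of chromosomes 1 to 19, with the 9 TiNRDs (red) and 10 LoNRDs (blue) that hold dispersed genes drawn as large points, and names where an NRD holds more than 1. The large blue points lie at the lower right, between 3 and 12.2 Mb in length and at 0.27 to 1.96 genes per Mb.

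Neighbouring members often shared a domain, so the 33 genes are not 33 separate regions. There were 23 pairs of neighbouring dispersed genes on the same chromosome, of which 19 had the same NRD kind, 14 the same NRD and 5 the same RT domain. Pairs of other genes were not counted, so these numbers have no background share. In 8 pairs no protein-coding gene lay between both members although each gap exceeded 500 kb, and 7 of these pairs shared an NRD. The exception was the pair of Cdh11 and Cdh5 described above. Counting each NRD once gave 9 tight and 10 loose among 19 NRDs.

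Many dispersed genes are long, with a median of 123 kb, beside 17.6 kb over all genes. Of all genes of at least 100 kb, 67.8% were in TiNRDs and 60.8% in early domains, and 25.1% were loose and late. Of the dispersed genes of at least 100 kb, 4 of 17 were in TiNRDs and 4 of 16 in early domains, and 12 of 16 were loose and late. Among genes of at least 500 kb the share in TiNRDs was 29.8% over all genes, and of the 5 dispersed genes 1, Cdh13, was in a TiNRD. Below 100 kb, 11 of 16 dispersed genes were in TiNRDs and 9 of 15 in early domains, beside 80.9% and 80.0% of all genes. The short genes in LoNRDs were Pcdh20 (6.65 kb), Pcdh18 (14.03 kb), Pcdh10 (57.2 kb), Cdh19 (89.3 kb) and Pcdh17 (95.4 kb). The part that gene length plays in the counts was not tested.

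**Figure D4:**
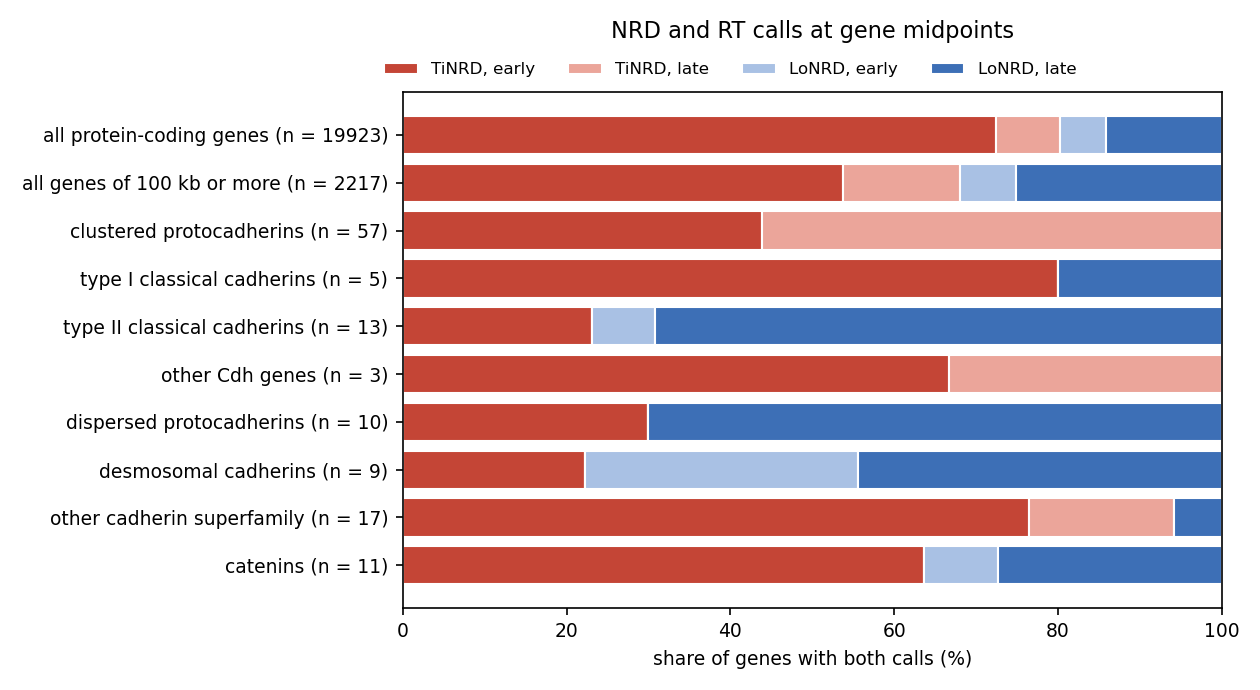
Share of genes (x axis, %) in each of the 4 combinations of NRD and RT call, with the number of genes that have both calls in brackets. Loose and late genes (dark blue) make up 69.2% of type II cadherins and 70.0% of dispersed protocadherins, and 25.1% of all genes of 100 kb or more. The bar of catenins also counts the plakophilin genes Pkp1 to Pkp4.

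The calls of a few members depend on where in the gene they are read. Cdh6 was the dispersed gene that spanned both NRD kinds, with 49.2% of its length in a TiNRD of index 0.67 and 50.8% in the long LoNRD, and its midpoint lay 1.19 kb from the border. It lay to 83.7% in an early domain, and by its annotated start it was late (-0.76) in place of early. Cdh12, of 1140 kb, crossed an early domain of 0.26 that covered 30.7% of the gene between late domains of -0.74 and -0.71. Cdh13, of 1041 kb, lay to 44.8% and 33.6% in late domains and to 12% in the early domain of Cdh15. NRD bins are 100 kb and RT windows 50 kb wide, so borders closer than this to a midpoint do not settle a call. The index was also smoothed over 10 bins before NRDs were called. For NRD calls the limit is therefore wider than a single bin, and its width was not determined. By the RT window, the RT calls of Cdh5, Cdh12, Pcdh8 and Cdh6 are unsettled. Their midpoints lay 23.1, 30.6, 31.0 and 48.8 kb from an RT domain of the other kind. The midpoint of Cdh19 lay 33.0 kb from the start of its late domain, but 7217 kb from the nearest early domain.

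In the clustered locus all 57 genes were tight, beside 15 of 33 dispersed genes. The shares in early domains were 43.9% and 41.9%, beside 77.9% of all genes. The clustered share depends on where a border falls, with 33 of 57 early by annotated start and 21 of 32 without members within 100 kb of a border. Each clustered gene takes the value of a late or of an early domain, so their median RT value, -0.57, is that of the late domain. The median of the dispersed genes was -0.61. The locus spans chr18:36930184-37841873 on mm10, from the start of Pcdha1 to the end of Pcdhgc5, 912 kb with 62.5 member genes per Mb, where the chromosomes 1 to 19 hold 8.45 protein-coding genes per Mb. In Pcdha and Pcdhg each gene entry starts at its own first exon and runs to a shared end. The 14 Pcdha entries ended within 4 bp of each other and the 21 Pcdhg entries within 3 bp, so entries of a cluster overlap and are not separate observations. The 22 Pcdhb genes stand alone and measured 2.59 to 8.70 kb.

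All 57 clustered genes lay in 1 TiNRD of 5900 kb, chr18:33600001-39500000, with an index of 0.69 and 140 genes. The index was at percentile 45.1 of all genes, close to the middle, and every clustered midpoint was at least 1669 kb from a LoNRD. This NRD also holds Pcdh1 and Pcdh12. As a single domain the locus counts as 1 tight region, so the 57 of 57 is not to be read against the share of all genes.

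The RT list divided the same locus. The lists differ in resolution, since NRDs were called on 100 kb bins smoothed over 10 bins and RT domains on 50 kb windows. Whether this smoothing hides a loose stretch of 500 kb within the TiNRD was not tested. The late domain chr18:37000001-37500000, with an RT value of -0.57, interrupted early domains of 1.54 before it and 1.37 after it. Its A/T content was 60.0%, and those of the early neighbours were 55.6% and 54.6%. By midpoint, 25 clustered genes were early and 32 late. All 14 Pcdha genes were late and all 21 Pcdhg genes were early. Of the Pcdhb genes 18 were late and the last 4, Pcdhb19 to Pcdhb22, were early. The midpoints of Pcdhb14 to Pcdhb22 lay within the 50 kb RT window of the border, from 48.0 kb for Pcdhb14 to 21.2 kb on the other side for Pcdhb22. The calls of these Pcdhb genes are therefore unsettled. Pcdhb19 was the least settled, with its midpoint 0.56 kb from the border. Read along the locus, 54.8% of its bases were late, with 72.9% of Pcdha, 90.6% of Pcdhb and 0% of Pcdhg.

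The annotated start gives another division, since the first exons of Pcdha genes are spread over the border. By start, the 9 genes Pcdha1 to Pcdha9 lay in the early domain before the late one, 24 genes lay in the late domain and 24 in the early domain after it. The late ones comprised both Pcdha11 entries, Pcdha12, Pcdhac1, Pcdhac2 and Pcdhb1 to Pcdhb19. Thus 33 of 57 clustered genes were early by start and 25 by midpoint. Pcdhb and Pcdhg together were affected in 1 gene, Pcdhb19. The spans of Pcdha1 to Pcdha9 cross the border between both domains.

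**Figure D5:**
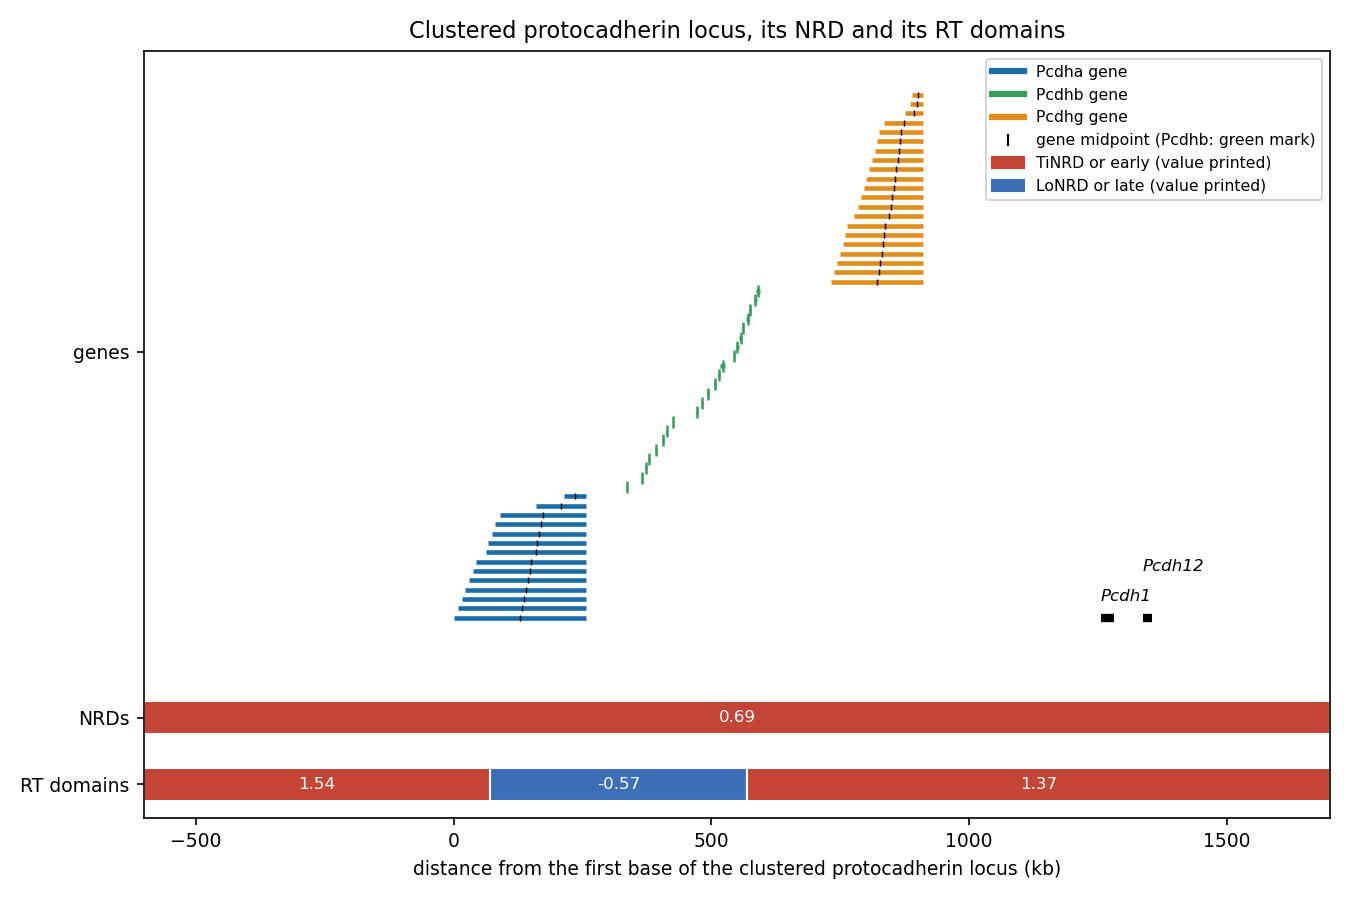
Clustered protocadherin genes, NRDs and RT domains by distance from the first base of the locus (x axis, kb). Each line is a gene entry, with its midpoint marked, and each bar a domain with its value (red for tight or early, blue for loose or late), so that 1 TiNRD of 0.69 covers the map while the late domain of -0.57 lies between early domains of 1.54 and 1.37.

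The late domain within the locus was dense in genes. It measured 500 kb and held 35 protein-coding genes by midpoint, 70.0 per Mb, which was at rank 2 among 849 late domains of chromosomes 1 to 19 (median 2.33 per Mb). Among 188 late domains wholly inside a TiNRD it was also at rank 2. Its length was close to the median of these 188 (550 kb) and below that of all late domains (1050 kb). Of its 35 genes 32 were clustered protocadherins, and the other 3 (Gm42416, Gm37013 and Gm37388) were gene models of 857 to 887 kb that span most of the locus. Because Pcdha entries overlap, these counts of genes are counts of annotated entries. In the whole list of 1558 tight and late genes, 32 (2.05%) were clustered members, beside 57 of all 20807 protein-coding genes. All 32 lay in this 1 RT domain, so the share is not one of separate regions. Slc25a2 and Taf7, between Pcdhb and Pcdhg, were the other protein-coding genes inside the locus.

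The counts of other genes of cell adhesion are to be read beside the 79.5% of all genes in TiNRDs and the 77.9% in early domains. The catenins, which link cadherins to the cytoskeleton, were counted together with the plakophilin genes Pkp1 to Pkp4. Of these 11 genes, 7 lay in TiNRDs and 8 in early domains. Ctnnb1, the gene of beta-catenin, had an index of 0.89 and an RT value of 0.98. The highest index was that of Jup (1.10), the plakoglobin gene, and the lowest that of Ctnna2 (-1.08), the gene of the neural alpha-catenin. Of the 9 desmosomal cadherins, the desmocollins and desmogleins of skin and heart, 2 lay in TiNRDs and 5 in early domains. Their cluster lies at the end of the LoNRD of Cdh2, which held 7 of them at -0.83, and Dsg3 and Dsg2 followed in the next TiNRD at 0.27. Of 18 other members of the superfamily, such as the Fat and Celsr genes of planar polarity, 17 lay in TiNRDs and 13 of 17 in early domains. Celsr1 had their highest index (1.32) and Fat3 their lowest (-0.75). Of the 5 nectin and afadin genes, 4 lay in TiNRDs and 4 in early domains, from 1.18 for Nectin2 to -0.56 for Nectin3. Of the 5 known repressors of Cdh1, 2 lay in TiNRDs and 1 of 4 in an early domain. Snai1 had the highest index of these (1.21), in the same NRD as Cdh22, and Zeb2 the lowest (-1.04).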

How the data were processed

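H3-wrapping-seq and RT libraries of R1 cells were made by the authors. Per the labels, reads were processed with cutadapt 4.3, Bowtie2 2.5.1, Picard, SAMtools and bedtools 2.30.0 on mm10. Fragments of 140 to 250 bp and of 50 to 140 bp were compared in 100 kb bins, and the z-score, smoothed over 10 bins, was cut into NRDs with homer2. As deposited, an NRD has 1 score, its index. For RT, early and late fractions were compared as a log2 ratio in 50 kb windows with quantile normalization, and the log2 value of each RT domain was deposited by the authors. Whether replicates were pooled for RT is not given in the sources used here. The lists name no replicates, so no depth, spread or test is given. All other libraries and tracks of the series were not analysed here.

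Genes were taken from GENCODE M21 (GRCm38) and assigned by midpoint to a domain. On 19 of 20 chromosomes (1 to 19 and X) the last RT domain ended at the end of this assembly. Neighbouring domains of the same kind were kept apart. A/T content was counted on GRCm38.p6, and percentiles were taken over all protein-coding genes. The assignment was tested on simulated data. The 32619 RefSeq promoter entries used equalled the assembly, and the 250 bases before each start were analysed. Calculations used Python 3.11.15, pandas 2.3.3, numpy 2.4.6 and matplotlib 3.10.9.

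The members and gene lists were chosen with earlier results of these data known. By rule, all dispersed members were named, of the locus its first and last gene and genes whose call differed from most, and of each comparison list the genes with the highest and lowest index. The sequences followed the same kind of rule. Ctnnb1 and the other genes named beside these were chosen after their values were seen. Alternatives were the annotated start, the kind that covers most of a gene, chromosome X, domains of at least 500 kb, members farther than 100 kb from a border, NRDs counted once, and genes of at least 100 kb as background.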

Additional observations from a re-analysis of the deposited data

How the results depend on the processing

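Over 9 results, 52 alternative values were computed, of which 46 stayed within 1.5 times the count, or within 1 SD over members for a median, and 0 reversed. This rule compares counts and not shares, so the tally does not measure how stable a share is. Clustered genes in early domains went from 25 of 57 to 33 of 57 by annotated start and to 21 of 32 away from borders. Both counted as within the limit, although most clustered genes were then early. The clustered genes in TiNRDs, 57 of 57 and then 32 of 32, counted as moved. For the median index, 1 SD is a loose limit, since no dispersed index lay between -0.77 and 0.29. The move of this median to -0.24 counted as within it. Counting each NRD once moved the dispersed genes in TiNRDs from 15 of 33 to 9 of 19, those in early domains from 13 to 8, those that were loose and late from 17 to 10, and the clustered genes in TiNRDs to 1 and in early domains to 0 (the locus then being 1 region, called at the median of its genes). Leaving out members within 100 kb of a border left 32 clustered genes, all 32 in the TiNRD and 21 of them early. It moved the median index of the dispersed genes from -0.83 to -0.24 over 24 genes. The lower counts follow from the smaller numbers counted, and the median moved as 12 tight and 12 loose genes were left. Using the annotated start changed the RT call of 12 members, the 9 genes Pcdha1 to Pcdha9, Pcdhb19, Cdh6 and Cdh13. No paired analysis was possible because the 2 lists name no replicates, and no replicate was left out. Tracks of single replicates were not analysed here. Borders finer than the bins of 100 kb and 50 kb are beyond what the lists resolve, and NRDs were called after smoothing over 10 bins.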

Other observations

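On chromosome X, outside the range of the main rule, the 2 protocadherin genes Pcdh11x and Pcdh19 were both loose and late. Pcdh11x, of 620 kb, had an index of -0.95 and an RT value of -0.72. Pcdh19, of 106 kb, had an index of -1.23, lower than that of any member on chromosomes 1 to 19, and an RT value of -0.83.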
